A study of Mus musculus with 24 samples.

Results

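Olfactory receptor genes were examined in the tibialis anterior, a muscle of the lower leg, as a family known for its use in the nose rather than in muscle, although single members have known roles elsewhere. The members were all probes whose platform symbol is Olfr followed by a number below 400, with 1 symbol left out by the rule. They came to 155 probes for 147 genes, of 26423 probes in all. The rule itself reads only the symbols and no measured value, but it was set with earlier results of these data known. The mice were 6 weeks old and of C57BL6/J;129S1/SvImJ strain background. Total RNA of each of the 8 animals had been hybridised to 3 arrays of 1 colour. All 8 mice carried 1 copy of Myf6 cre, a recombinase driven from a muscle gene that is active in muscle fibres. The 4 control mice had 1 floxed and 1 intact Hira allele (genotype Myf6 cre/+ with Hira flox/+), and the 4 mice labelled Hira CKO had 1 floxed and 1 null allele (Hira flox/-). The cells outside fibres therefore differed between the groups as well. In whole muscle, fewer cells of a type and less RNA per cell cannot be told apart.

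Olfactory receptors are G protein-coupled receptors of the olfactory sensory neurons of the nose, and in the mouse they form one of the largest gene families. Each neuron expresses a single allele of a single receptor gene. The remaining receptor genes lie in compact chromatin, and many are arranged in clusters along the chromosomes. The HIRA protein places histone H3.3 into chromatin independently of DNA replication. The comparison addressed whether receptor genes kept their level in the animals labelled Hira CKO.

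The probe for Hira itself was not lower in these animals, since its intensity was 495 ± 48.9 in the 4 controls and 558 ± 38.9 in the 4 Hira CKO animals (mean ± SD), with a limma adjusted p of 0.193. Where this probe lies relative to the deleted exons was not known here, so it does not check the labels. Muscle identity was plain, since 18 of 19 probes of a list of fibre genes (22 listed) lay among the brightest 25% of all probes. Of the fibre gene probes, Acta1 (skeletal actin, -0.55 log2) and Ckm (muscle creatine kinase, -0.28) were lower and 1 probe of Casq1 (calsequestrin) was higher (0.25), while its other probe differed by -0.23 and did not pass. Markers of other cell types were measured beside the receptors. Of 12 endothelial probes 1 rose and 4 fell (41.7% called, beside 20.6% of all probes). Egfl7 (-0.69 log2), Kdr (-0.60) and Emcn (-0.44) were among the falls, and Eng rose (0.54). The summed intensity of the endothelial probes was 62065 to 78215 in controls and 47924 to 54203 in Hira CKO. Egfl7 alone went from 30882 ± 5196 to 19234 ± 3135 (SD, n = 4) and carried much of the change in this sum. Of 10 blood and macrophage probes 3 rose and 1 fell (40% called, summed 5752 to 8547 and 5770 to 7324). The fall was a large one, of Cx3cr1 by 1.61 log2 (217 ± 18.5 to 60.5 ± 5.83, SD, n = 4, limma adjusted p 4.84e-06). Cd3e rose by 0.48, Itgam by 0.40 and Cd79b by 0.29 log2. None of 9 Schwann and nerve probes (25752 to 45311 and 30111 to 33297) or 8 fat cell probes (286377 to 307984 and 264966 to 280653) passed in limma at an adjusted p of 0.05, and 1 and 0 of them had an unadjusted p under 0.05. Car3 alone read 244697 ± 10874 in controls and 228030 ± 2269 in Hira CKO (SD, n = 4), so it made up most of the fat cell sum. Of the 8 fat cell probes 2 had differences above 0 and 6 below. None of the markers of these other cell types was at 0. The part of these cells in the receptor results was not tested.

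The receptor probes were dim. Their median intensity was 117 in controls and 109 in Hira CKO, against 440 and 438 over all probes. All probes were ranked by their mean log2 level over the 8 animals and split into 4 level classes that each held 25% of them, from class 1 (dimmest) to class 4 (brightest). Of the 155 member probes 81 (52.3%) lay in class 1, 37 (23.9%) in class 2, 27 (17.4%) in class 3 and 10 (6.45%) in class 4. The median member stood at the 22.5th percentile of all probes. The 387 probes for receptors numbered 400 or above had nearly the same distribution, with 51.7% in class 1 and 6.46% in class 4. The lowest member value on any array was 8.98, and 0 of the 3720 member values were 0 or negative. The brightness of a probe also depends on its own sequence, and no detection call came with the values, so a low intensity is not a measure of absence and a high one is not a proof of transcription.

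**Figure D1:**
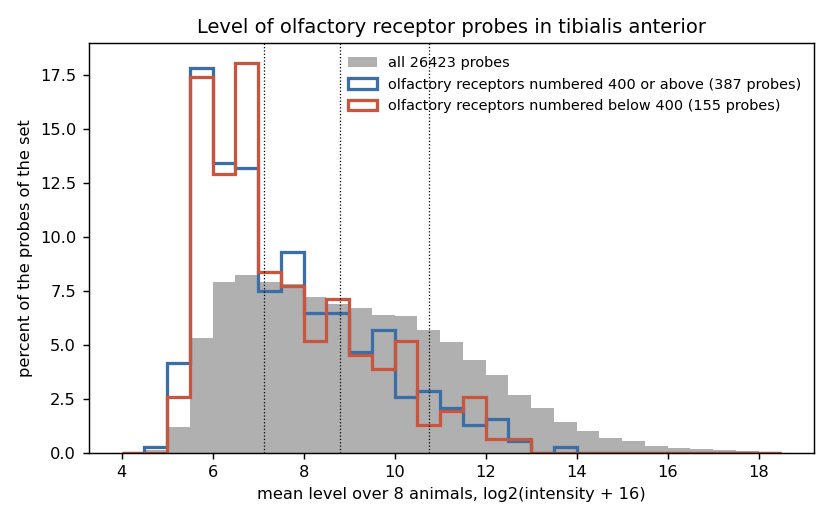
Percent of probes in each bin of mean level, on the log2(intensity + 16) scale, for all 26423 probes (grey), 387 probes for receptors numbered 400 or above (blue) and 155 probes for receptors numbered below 400 (red). Dotted lines mark the limits of the 4 level classes, and 52.3% of the members lie left of the first line.

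The dimmest member probe was Olfr389. It read 28.5, 19.2, 19.7 and 23.2 in the 4 controls and 30.7, 26.1, 23.5 and 32.8 in the 4 Hira CKO animals. The groups overlapped, and the difference was 0.19 log2 (SE 0.10). Olfr57, Olfr44, Olfr180 and Olfr52, the next in level, differed by 0.25, 0.27, 0.09 and 0.15 log2. Adjusted p in limma was between 0.094 and 0.539 for these 5 probes, and none passed.

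Receptors with known roles outside the nose were read individually. Olfr16 (also named MOR23) responds to lyral, is found in mouse sperm and takes part in the migration and adhesion of muscle precursor cells. Its probe read 33.5, 35.5, 29.4 and 36.1 in controls and 41.7, 40.1, 38.1 and 36.4 in Hira CKO. Every Hira CKO animal was above every control, though the lowest Hira CKO animal and the highest control were close. It differed by 0.15 log2 (SE 0.07), the 95% interval ran from -0.01 to 0.32, and the limma adjusted p was 0.164. Over the 70 ways to assign the animals, the exact permutation test (two-sided) gave p = 0.0286, the smallest p that 4 against 4 can give. Any probe whose groups do not overlap gets this p, and 24.8% of all probes did not overlap. The test therefore adds nothing to the lack of overlap. Olfr16 stood at the 2.84th percentile of all probes. Olfr78, a receptor for short-chain fatty acids in kidney and blood vessels, was much brighter. It read 1475, 1555, 1401 and 1631 in controls and 1604, 1564, 1719 and 1147 in Hira CKO. The groups overlapped, with Hira CKO animal 4 the lowest of all, and the difference was -0.02 log2 (SE 0.12, limma adjusted p 0.927, exact permutation p 0.914). In the RefSeq table the span of Olfr78 overlaps that of another receptor gene, as 10 of the 147 member genes overlap another gene, so the signal of these probes may hold both genes.

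Of the 155 member probes 21 (13.5%) passed an adjusted p of 0.05 in limma, where 20.6% of all probes passed. Of these 9 were higher in Hira CKO (10.5% of all probes were) and 12 were lower (10% of all probes were). The difference between 13.5% and 20.6% was not tested. In class 1, 6 of 81 members passed (7.41%, against 13.2% of all probes there), in class 2 8 of 37 (21.6%, against 22.3%), in class 3 7 of 27 (25.9%, against 23.4%) and in class 4 0 of 10 (against 23.3%). For the 10 members of class 4 limma gave 2 unadjusted p-values under 0.05. The groups did not overlap for 28 members (18.1%), against 24.8% of all probes, with 13 higher in Hira CKO (12.8% of all probes) and 15 lower (12.0%). The count of 21 fell when an animal was left out, and so did the share of all probes called. The count was 9 without control animal 3 (13.9% of all probes called) and 9 without Hira CKO animal 1 (14.2%). It was 11 without control animal 2 (15.8%) and 11 without Hira CKO animal 2 (14.5%). The count of 9 rises was 3 without control animal 3 and without Hira CKO animals 1 or 2, and 5 without control animals 1 or 4 or Hira CKO animal 3. The count of 12 falls was 5 without control animal 2 and 6 without control animal 3 or Hira CKO animal 1.

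The differences were small. Their SD over the members was 0.23 log2, against 0.34 over all probes. Over the 387 probes for receptors numbered 400 or above it was 0.28, with differences from -1.50 to 0.93 log2. The median member difference was 0.01 log2, as it was over all probes. From class 1 to class 4, the SD of the members was 0.18, 0.24, 0.32 and 0.17 log2, and that of all probes was 0.24, 0.36, 0.39 and 0.36. The median SD between animals of a group was 0.12 log2 for members and 0.14 for all probes. A difference of 2-fold or more was seen at 0 of 155 members and at 1.77% of all probes (1.67% with a call). A difference of 1.5-fold or more was seen at 3 members, all called, and at 7.02% of all probes (6.24% with a call). Of the 387 probes for receptors numbered 400 or above, 3 differed by 2-fold or more and 21 by 1.5-fold or more. The 95% interval of the difference lay inside 2-fold in both directions for 152 members (98.1%, against 94.4% of all probes) and inside 1.5-fold for 139 (89.7%, against 77.5%). Because 16 was added before the logarithm, these values understate the change of dim probes.

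**Figure D2:**
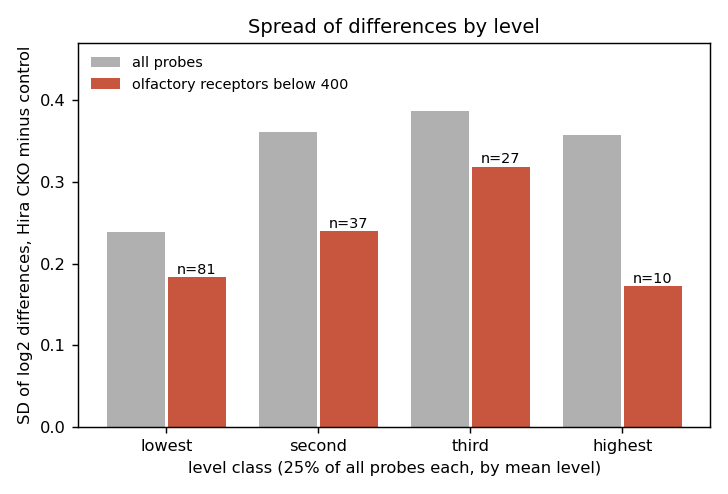
SD of the log2 differences (Hira CKO minus control) in each level class, for all probes (grey) and for member probes (red), with the number of members above each bar. The members' SD lies between 0.17 and 0.32 log2 and below that of all probes in each class.

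None of the dimmest receptors left class 1. When probes were ranked within each group, 80 members lay in class 1 in controls, and all 80 lay in class 1 in Hira CKO. Over all probes 6170 of 6605 (93.4%) did so and 435 moved to class 2. Among receptors numbered 400 or above it was 192 of 193. By mean level over the 8 animals, the 81 members of class 1 had a median of 6.24 log2, and the class ended at 7.14. The largest rise among them was 0.44 log2, so many could rise that far and stay in class 1. They also lay deeper in the class than all its probes, at a median percentile of 10.1 against 12.5. The 93.4% is therefore not a like comparison. Another 2 members entered class 1 in Hira CKO. They were Olfr368, which went from 163 ± 31.2 to 105 ± 15.6 (SD, n = 4), and Olfr54, at 135 ± 21.2 and 106 ± 8.01 (limma adjusted p 0.0730), the second named after its values were seen. In single animals 79 to 81 members lay in class 1 in controls and 81 to 84 in Hira CKO. The deposited arrays had nearly the same distribution of values, as judged from the file, so a shift shared by all dim probes may have been removed before deposit.

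**Figure D3:**
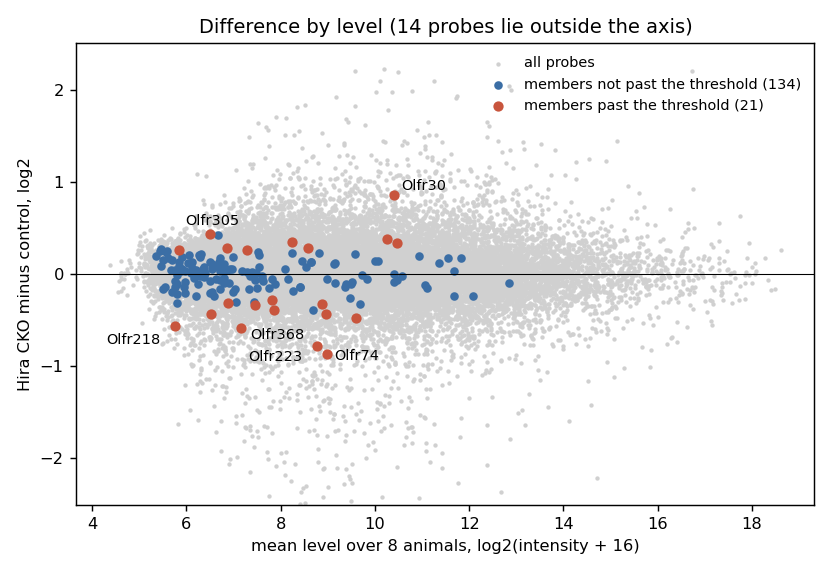
Difference between the groups (Hira CKO minus control, log2) against mean level, for all probes (grey), 134 members that did not pass (blue) and 21 that passed (red). The members lie between -0.87 and 0.86 log2, and the 14 probes outside the axis include 0 members.

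Of the members that rose, Olfr30 had the largest difference, and it rested on 1 of 2 probes. The brighter probe read 1169, 1381, 664 and 1500 in controls and 1777, 1834, 1866 and 1820 in Hira CKO. The groups did not overlap, and the controls spread more widely (SD 369 against 37.0). The rise was 0.86 log2 (SE 0.25, limma adjusted p 0.0396), but this call was lost in 6 of the 8 fits that omitted an animal in turn (any Hira CKO animal, or control animal 1 or 2). The rise was 0.55 log2 without control animal 3, and the call was kept there. The spread of the controls lay between animals and also between arrays of 1 animal. The arrays of control animal 2 read 397, 2039 and 1706, and those of control animal 3 read 1342, 367 and 283. The 12 Hira CKO arrays read 1547 to 2104. The dimmer probe of Olfr30 read 36.9, 30.2, 34.3 and 29.5 in controls and 24.3, 27.3, 33.4 and 26.3 in Hira CKO, a difference of -0.16 log2 that did not pass (limma adjusted p 0.214).

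Olfr305 rose at a dim probe. It read 72.4, 62.3, 60.3 and 54.6 in controls and 93.8, 83.5, 86.1 and 97.6 in Hira CKO, with no overlap. The rise was 0.44 log2 (SE 0.09, limma adjusted p 0.00658). It was the only rise whose call was kept in all 8 such fits. Olfr151, the receptor known as M71, for acetophenone, read 88.7, 95.7, 84.9 and 92.0 in controls and 116, 116, 112 and 109 in Hira CKO, a rise of 0.28 log2 (limma adjusted p 0.0151). RefSeq lists Olfr151 as a transcribed pseudogene in its reference strain. Olfr374 rose by 0.38, Olfr303 by 0.35, Olfr198 by 0.33, Olfr148 by 0.26 and Olfr392 by 0.26 log2. The groups did not overlap for Olfr374, Olfr303, Olfr148 or Olfr392, and did for Olfr198, which lay just inside the threshold (limma adjusted p 0.0436). The call of Olfr151 was lost without control animal 3 (rises of 0.26 to 0.31 log2 over the 8 fits) and that of Olfr148 without control animals 3 or 4 (0.24 to 0.27). Olfr374 (0.33 to 0.45) lost its call without control animals 3 or 4 or Hira CKO animals 1, 2 or 3. Olfr198 (0.27 to 0.41) lost it without these or control animal 1. Olfr392 (0.22 to 0.29) lost it without control animals 1, 2 or 3 or Hira CKO animals 1, 2 or 4, and Olfr303 (0.25 to 0.41) kept it only without control animal 4.

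Olfr76 was measured by 2 probes that moved alike. One rose by 0.28 log2 (334 ± 16.7 to 410 ± 28.1, SD, n = 4, limma adjusted p 0.0271), and the other differed by 0.23 and lay just outside the threshold (0.0524). The call of the first was lost without control animals 3 or 4 or Hira CKO animals 1, 2 or 3 (0.25 to 0.32 log2 over the 8 fits). Of the 8 receptor genes with 2 probes, 3 had differences of the same sign and 5 of opposite sign, and both probes passed for 0. For 5 of the 8 the probes lay in different level classes. Olfr30 was at 30.3 and 1502, Olfr90 at 75.5 and 1344, Olfr157 at 163 and 3633, Olfr324 at 75.3 and 129, and Olfr76 at 372 and 438, as means over the 8 animals. For Olfr12, Olfr225 and Olfr376 both probes lay in class 1.

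Of the members that fell, Olfr74 had the largest difference. Olfr74 is the receptor mOR-EV, which responds to vanillin. It read 523, 714, 866 and 657 in controls and 348, 442, 315 and 424 in Hira CKO, with no overlap. The fall was -0.87 log2 (SE 0.18, limma adjusted p 0.00847). Arrays of 1 animal differed widely here too, at 254, 122 and 570 in Hira CKO animal 3. Olfr223 fell by 0.78 log2 (SE 0.23, limma adjusted p 0.0394). It read 454, 665, 693 and 484 in controls and 274, 228, 440 and 485 in Hira CKO, so that Hira CKO animal 4 overlapped the controls. Its call was lost without control animals 2, 3 or 4 or Hira CKO animals 1 or 2 (-0.96 to -0.62 log2 over the 8 fits).

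Dim probes were also among the falls. Olfr218 read 48.2, 49.6, 49.8 and 52.6 in controls and 37.0, 30.7, 28.9 and 20.5 in Hira CKO, without overlap. It fell by 0.56 log2 (SE 0.11, limma adjusted p 0.00604), the largest change among the 6 members of class 1 that passed. Olfr24 read 94.5, 87.1, 92.6 and 88.3 in controls and 70.7, 57.9, 63.0 and 60.2 in Hira CKO. Its fall of 0.44 log2 (SE 0.07) had the smallest limma adjusted p of the members, 0.00298. Olfr17, the receptor P2, whose axon targeting has been studied widely, went from 117 ± 11.7 to 90.9 ± 9.75 (SD, n = 4), with overlapping groups. It fell by 0.31 log2 (limma adjusted p 0.0381) and is named after its values were seen. The falls of Olfr74, Olfr218, Olfr62 (-0.47 log2), Olfr24 and Olfr64 (-0.39), with the rise of Olfr305, were the 6 calls kept whichever animal was omitted. Olfr368 (-0.58 log2), Olfr282 (-0.43), Olfr353 (-0.34), Olfr173 (-0.33) and Olfr348 (-0.28) lost their calls in some of these fits, as did Olfr17. For Olfr368 (-0.67 to -0.48 log2) and Olfr353 (-0.37 to -0.29) these were the fits without control animals 2 or 3 or Hira CKO animal 1. For Olfr173 (-0.36 to -0.26) they were those without control animals 2 or 4. For Olfr282 (-0.50 to -0.36) they were those without control animals 2 or 3 or Hira CKO animals 1, 2 or 4. Olfr348 (-0.32 to -0.24) kept its call without control animal 1 or Hira CKO animal 3, and Olfr17 (-0.38 to -0.27) without control animal 4 or Hira CKO animal 3. Olfr348, like Olfr17, is named after its values were seen. The 21 calls had a median size of 0.38 log2, against 0.45 for all called probes.

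**Figure D4:**
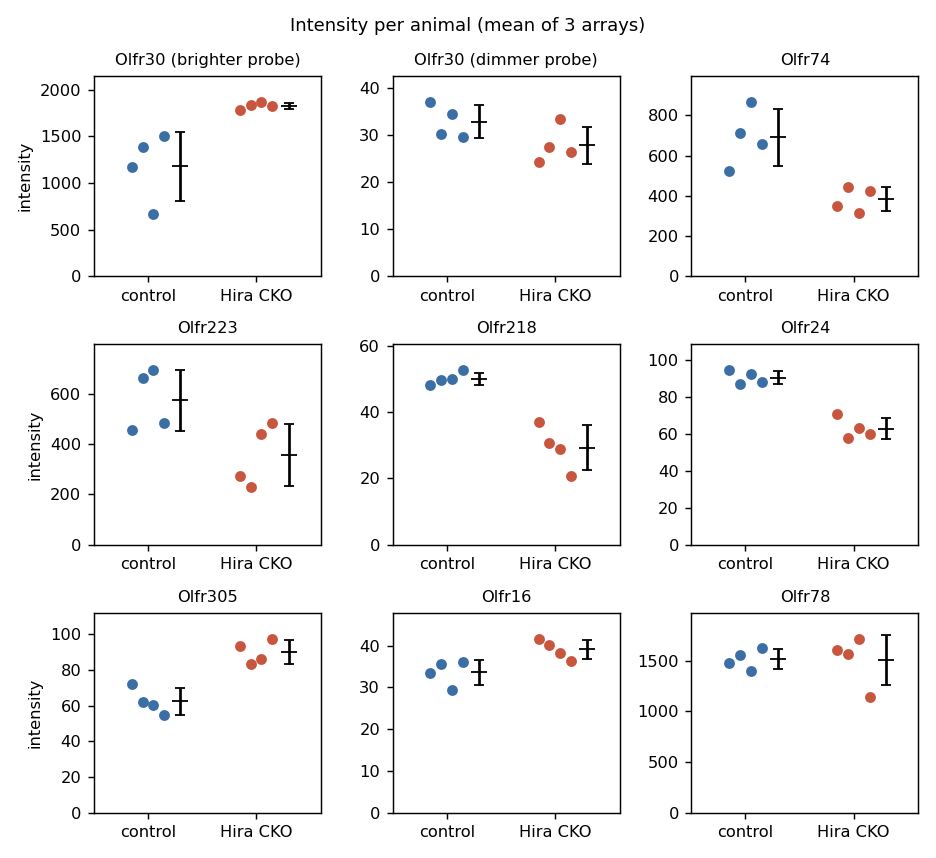
Intensity of 9 member probes in each animal (mean of 3 arrays), with the mean and SD of the 4 animals as a black bar, each panel starting at 0. The groups do not overlap for the brighter Olfr30 probe, Olfr74, Olfr218, Olfr24, Olfr305 and Olfr16, and overlap for Olfr223, Olfr78 and the dimmer Olfr30 probe.

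Sequence from the start of the gene is shown for 4 members that carry these results. They are Olfr16 for its role in muscle cells, Olfr30 as the largest rise, and Olfr218 and Olfr62. The falls of Olfr218 and Olfr62 were kept in all 8 fits that omitted an animal in turn. Under the other alternatives Olfr218 lost its call in 1 of 15 and Olfr62 in 2 of 16. The windows are from RefSeq on GRCm38.p6 and run from 250 bases before the annotated start to 50 after it, written 5′ to 3′ on the strand of the gene. They lie at chr1:172956518-172956817 (plus strand, Olfr16), chr11:58455931-58456230 (minus strand, Olfr30), chr1:173203108-173203407 (plus strand, Olfr218) and chr4:118665269-118665568 (plus strand, Olfr62). Capitals mark matches of TATAAA on either strand and, where the annotated start is the first codon, that ATG.
Olfr16: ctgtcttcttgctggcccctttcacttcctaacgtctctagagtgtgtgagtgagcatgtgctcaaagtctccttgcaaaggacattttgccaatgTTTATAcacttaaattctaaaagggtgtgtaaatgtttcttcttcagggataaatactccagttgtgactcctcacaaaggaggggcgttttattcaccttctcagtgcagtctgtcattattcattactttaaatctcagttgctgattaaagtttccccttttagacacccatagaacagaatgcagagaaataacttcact
Olfr30: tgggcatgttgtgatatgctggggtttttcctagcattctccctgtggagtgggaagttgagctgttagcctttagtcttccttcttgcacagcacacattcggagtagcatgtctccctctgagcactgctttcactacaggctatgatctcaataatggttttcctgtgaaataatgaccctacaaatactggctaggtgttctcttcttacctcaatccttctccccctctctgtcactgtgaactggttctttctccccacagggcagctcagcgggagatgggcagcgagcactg
Olfr218: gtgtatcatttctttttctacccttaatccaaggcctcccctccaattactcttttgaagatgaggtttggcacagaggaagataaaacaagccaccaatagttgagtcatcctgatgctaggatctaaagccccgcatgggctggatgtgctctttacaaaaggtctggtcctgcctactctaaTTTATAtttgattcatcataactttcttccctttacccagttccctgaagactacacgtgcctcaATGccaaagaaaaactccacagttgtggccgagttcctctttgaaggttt
Olfr62: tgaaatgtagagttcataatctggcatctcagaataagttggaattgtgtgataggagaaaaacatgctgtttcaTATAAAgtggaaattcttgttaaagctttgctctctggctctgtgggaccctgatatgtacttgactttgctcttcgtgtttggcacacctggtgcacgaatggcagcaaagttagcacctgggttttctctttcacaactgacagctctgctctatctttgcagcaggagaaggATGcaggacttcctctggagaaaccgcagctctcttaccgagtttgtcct

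A window was found for 119 of the 147 member genes (120 windows). In 65 of the 120 windows (54.2%) the annotated start was an ATG, as in Olfr218 and Olfr62, against 5.83% of all 32851 windows in the table. Those windows therefore show sequence before the coding exon and may not hold the promoter. Motifs known from receptor promoters were searched on both strands. The letters TAATTA, a core of homeodomain sites such as those of Lhx2, were found in 17.5% of member windows, 17.6% of windows of receptors numbered 400 or above and 5.29% of all windows. The letters CCCNNGGG, a core of the sites of the Ebf factors, were found in 5.83%, 4.55% and 13.7%, and TATAAA in 30%, 36.7% and 13.6%. In the 55 member windows that did not start at an ATG, CCCNNGGG was found in 10.9%, TAATTA in 14.5% and TATAAA in 25.5%. The 3 motifs cannot be the same stretch of letters, and the windows were not matched for base composition. Olfr16 and Olfr218 held TATAAA on the opposite strand, Olfr62 held it on its own strand, and the Olfr30 window held none of the 3.

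Members lay on 16 chromosomes, with 31 probes on chromosome 11, 21 on chromosome 2, and 17 each on chromosomes 7 and 17. On chromosome 2, 0 rose and 4 fell (Olfr74, Olfr368, Olfr353 and Olfr348), with a median difference of -0.14 log2. Over all 1625 probes named on chromosome 2, 163 rose and 178 fell, with a median of 0.01, and among 101 probes of receptors numbered 400 or above there, 10 rose and 9 fell. In gene order, 10 of the 11 members from Olfr348 to Olfr358 were below 0, with a median of -0.20 log2 and 2 calls. Of the other 10 members on chromosome 2, 4 were below 0 and 6 above, with a median of 0.07. This stretch was chosen after its values were seen. Olfr354, in the stretch, lay just outside the threshold (-0.33 log2, limma adjusted p 0.0513). On chromosome 17, 0 of 17 members passed in limma (2 by an unadjusted p under 0.05), where 100 of all 933 probes rose and 110 fell. On chromosome 11, 2 of 31 members rose and 1 fell (156 and 152 of all 1555 probes). On chromosome 7, 2 of 17 rose and 2 fell (149 and 172 of 1654), and on chromosome 9, 2 of 12 rose and 1 fell (126 and 144 of 1177). Over 77 pairs of neighbouring members less than 100 kb apart, 45 (58.4%) differed in the same direction, and the differences correlated at 0.07 across pairs, which share genes and are not independent. Probes of neighbouring receptors can share sequence, and similar receptor genes cannot be fully separated by hybridisation.

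**Figure D5:**
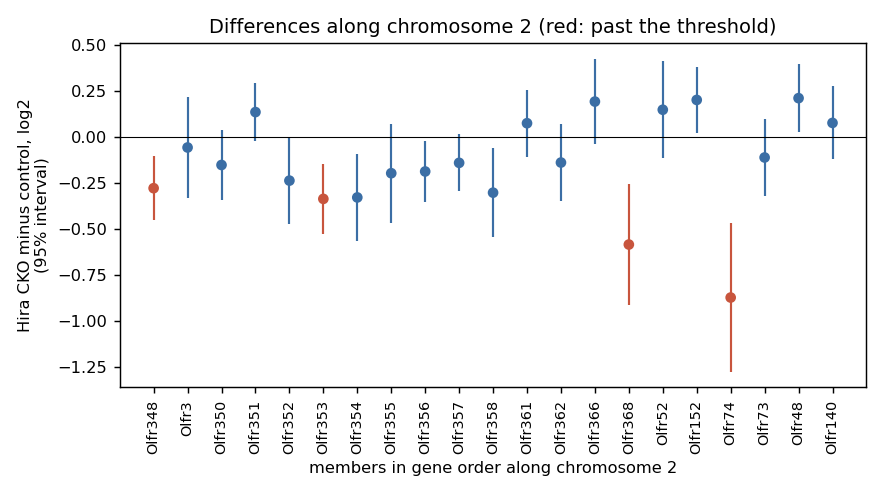
Difference between the groups (log2, with its 95% interval) for the 21 members on chromosome 2, in gene order. Red points passed the threshold, and 10 of the first 11 members lie below 0.

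The 10 brightest members did not pass, and for most of them the same animals stood at the ends of their groups. The 10 were Olfr214, Olfr352, Olfr157 (its brighter probe), Olfr123, Olfr95, Olfr63, Olfr221, Olfr350, Olfr287 and Olfr366. Olfr214, the brightest, read 6064, 8095, 8445 and 7946 in controls and 6680, 8385, 7341 and 6197 in Hira CKO, at the 92.6th percentile of all probes. The groups overlapped, and the difference was -0.09 log2 (SE 0.13, limma adjusted p 0.638). Hira CKO animal 4 was the lowest of its group for 10 of these 10 probes, against 34.2% of all probes in class 4. Control animal 2 was the highest of its group for 9 of 10, against 29.5%. The same animals stood at these ends for 17 (63.0%) and 15 (55.6%) of the 27 members in class 3, against 36.4% and 30.3% of all probes there. Olfr352, for example, read 4148, 5382, 4680 and 4527 in controls and 3710, 4105, 4553 and 3541 in Hira CKO, a difference of -0.24 log2 (limma adjusted p 0.141). These animals were singled out after the values were seen, and the probes were read on the same animals, so the probes are not independent. The part of single animals in these levels was not tested.

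Repeat arrays of 1 animal agreed less well for a few members than for others. Of 3720 member values, 15 (0.403%) lay more than 1 log2 from the mean of their animal, against 0.221% of all values. Olfr125 read 562 on 1 array of Hira CKO animal 1 and 24.7 and 19.7 on the other arrays of that animal, while it read 18.4 to 43.5 on the 12 control arrays. Its difference of 0.17 log2 (limma adjusted p 0.658) became -0.12 without that animal. Olfr398 read 498, 1565 and 240 on the arrays of control animal 4 and differed by -0.26 log2 (limma adjusted p 0.418). Both are named after their values were seen. The SD of member values about the mean of their animal was 0.131 to 0.292 log2 over the 24 arrays, with the widest on the array that held the high Olfr125 value.

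The machinery of olfactory reception was partly present on the array. Of 22 probes for olfactory signal transduction (17 genes of 20 listed) 3 rose and 1 fell, or 18.2% called, beside 20.6% of all probes, so the list's share was near the background. Gnal, the G protein of receptor signalling, fell by 0.35 log2 (255 ± 20.6 to 197 ± 14.6, SD, n = 4) at 1 probe and differed by -0.04 at another. Gng13, a G protein subunit, rose by 0.29, Cnga3, a cyclic nucleotide-gated channel, by 0.36 at 1 probe, with 0.43 at another that just missed the threshold (limma adjusted p 0.0506). Pde1c, a phosphodiesterase, rose by 0.30 at 1 of 3 probes. Omp, the marker protein of mature olfactory neurons, stood at 276 in controls and 249 in Hira CKO and did not pass (limma adjusted p 0.196). In the list of nasal epithelium markers 0 of 12 probes passed in limma (5 by an unadjusted p under 0.05), with a summed intensity of 11748 to 13467 in controls and 10874 to 12018 in Hira CKO. Of 9 probes for receptor trafficking 1 rose and 1 fell, or 22.2% called. Rtp2, a chaperone that brings receptors to the surface, fell by 0.70 log2 (1684 ± 169 to 1033 ± 135, SD, n = 4, limma adjusted p 0.002), and Reep6 rose by 0.30.

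Of 26 probes for factors of receptor gene choice and silencing (22 genes of 26 listed) 3 rose and 4 fell. This was 26.9% called, beside 20.6% of all probes, and the difference was not tested. Lhx2, a homeodomain factor needed for receptor expression, rose by 1.65 log2 (SE 0.49, limma adjusted p 0.0393), from 4187 ± 3077 to 9756 ± 2547 (SD, n = 4). Suv39h2, a writer of the silencing mark H3K9 trimethylation, rose by 0.44 log2, and Emx2, also a homeodomain factor, by 0.26. Daxx, an H3.3 chaperone that works with the remodeller Atrx, fell by 0.45 log2 and Kdm1a, a histone demethylase required at the onset of receptor choice, by 0.40. Trim28, a corepressor, fell by 0.32 and Kmt5b, a writer of H4K20 methylation, by 0.20 at 1 of 3 probes, with the other probes at -0.29 and 0.26 not past the threshold.

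Other gene groups not known for a role in muscle were read on the same scale. Of 90 probes for taste, trace amine and vomeronasal receptors 43.3% lay in class 1, and the SD of their differences was 0.26 log2. Of these 11 rose and 6 fell (18.9% called, beside 20.6% of all probes). Vmn2r55, a vomeronasal receptor, rose by 1.12 log2 (1815 ± 456 to 3700 ± 127, SD, n = 4), a larger change than any olfactory member showed. The bitter taste receptors Tas2r124 and Tas2r130 rose by 0.61 and 0.60, and Vmn1r233 fell by 0.68. Of 14 germ cell probes (42.9% in class 1) 1 rose (7.14% called), Dazl at 0.43 log2. Of 21 liver and pancreas probes (33.3%) 3 rose (14.3% called), Fga at 0.63 (at 1 of 4 probes, the others at 0.06, -0.10 and -0.17), Ahsg at 0.34 and Cela2a at 0.29. The median difference of these 21 was 0.19 log2. The groups did not overlap for 8 of them (38.1%, against 24.8% of all probes), 7 of these higher in Hira CKO. Of 11 retina and lens probes (27.3%) 2 fell (18.2% called), Crx at -0.58 and Sag at -0.32. The largest difference of that list was a rise of 1.16 log2 that did not pass. In all, 5 of its differences were above 0 and 6 below. Unadjusted limma p was under 0.05 for 12 liver and pancreas, 2 germ cell, 6 retina and lens, and 23 of the 90 chemosensory probes. The olfactory members had the largest share of dim probes of these lists, which differ in size and were not tested against each other.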

How the data were processed

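Each of the 24 arrays had 26423 probes with a deposited intensity on a linear scale (Cy5, 5 micrograms of labelled RNA, per the labels' protocols). The authors had normalized the values, as judged from the file: array medians were 431.5 to 433.5, the highest value was the same on every array, and 81.1% of values were multiples of 1/24 within 0.001. The scanner, the slides, the background correction and the software are not given in the sources used here. Symbols came from the platform annotation (20377 probes with 1, 0 with several, 6046 unnamed here); all 147 member genes were found in the RefSeq table of GRCm38.p6, used for names, chromosomes and gene order.

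Negative values were raised to 0 and log2 of the value plus 16 was taken. The 3 arrays of an animal were averaged as 1 replicate, and the groups compared with limma 3.58.1 (R 4.3.3, lmFit and eBayes), where p-values were adjusted by Benjamini-Hochberg across the whole table and called at 0.05. No source says that animals were otherwise independent. The fit was tested on simulated data. No set test was run. The members, the gene lists and the rule for named genes were chosen with earlier results of these data known. The rule took Olfr16, Olfr78, up to 10 rises and 10 falls past the threshold, and the 10 brightest and 5 dimmest members. It also took genes with 2 probes and members next to the threshold (42 genes in all). To these it added Hira and up to 4 called genes of each list with the largest change. The 4 brightest of each list, such as Trim28, were also in the rule, and not all of them are printed. Emx2, Kmt5b and Omp were named outside the rule. Alternatives were other pseudocounts, normalizations, filters, array treatments, variance models, thresholds, a block, and each animal left out. Figures used matplotlib 3.10.9.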

Additional observations from a re-analysis of the deposited data

Results flagged for a closer look

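Of 110 sets of 4 animals examined for the members named above, 4 held 1 animal far from the others, where chance flags about 1 in 20. Olfr63 read 2332 in control animal 1 and 2999 to 3130 in the other controls. Olfr173 read 567 in control animal 2 and 488 to 500 in the other controls (499.8 at the highest). Olfr366 read 1700 (1699.8) in Hira CKO animal 4 and 2194 to 2270 (2269.8) in the others. Olfr125 read 202 in Hira CKO animal 1 and 20.6 to 34.7 in the others, from 1 of its 3 arrays.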

How the results depend on the processing

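The SD of the member differences stayed below that of all probes in every alternative, at 0.14 to 0.30 log2. The median member percentile stayed between 22.1 and 22.5 over the 8 fits that left out 1 animal. Counts of calls moved more, and the share of all probes called moved as well. It was above the share of members called in every alternative. Over those fits 9 to 19 members passed in all, 3 to 7 higher and 5 to 14 lower, with fewer samples in each. From 13.9% to 19.4% of all probes passed there. With only array 1 of each animal 6 passed (3 higher, 3 lower), or 3.87% against 12.1% of all probes. With only array 2 it was 9 (2 and 7), or 5.81% against 10.8%. With only array 3 it was 7 (3 and 4), or 4.52% against 11.8%. With the median of 3 arrays 5 were higher. Without the lowest 30% of probes 65 members remained, at a median percentile of 31.9, and 12 passed (5 and 7). At thresholds of 0.01 and 0.1 the counts were 5 (1 and 4) and 34 (15 and 19). With the animal number as a replicate block 5 members were higher and 17 passed in all. Same-numbered animals of the groups correlated at 0.30, 0.09, -0.06 and 0.07 in their deviations. Animals of different numbers were not compared in this way, so whether the numbers pair samples was not tested. Differences that did not pass changed sign in some settings. With the median of 3 arrays these were Olfr12 (-0.0342 log2), Olfr125 (-0.0996), Olfr157 (-0.0119) and Olfr398 (0.0874). With array 1 they were Olfr52 (-0.0979), Olfr78 (0.0272) and Olfr398 (0.11), and with array 2 Olfr30 at its dimmer probe (0.0437), Olfr95 (-0.107), Olfr225 (0.149) and Olfr389 (-0.0575). With array 3 they were Olfr90 (0.0226), Olfr125 (-0.300), Olfr180 (-0.281) and Olfr324 at both probes (0.0189 and -0.122). Over the fits without 1 animal, Olfr78 ranged from -0.0878 to 0.10, Olfr95 from -0.0422 to 0.14, Olfr125 from -0.12 to 0.35, Olfr157 from -0.0617 to 0.0675 and Olfr225 from -0.0949 to 0.0584. The cause was not tested. No call among the named members changed direction under any alternative run.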
